A study of Homo sapiens with 6 samples.

Results

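The 10 genes followed here act on the amyloid precursor protein APP or on the peptide cut from it. They are the beta-secretase BACE1 and its homologue BACE2, the alpha-secretases ADAM9, ADAM10 and ADAM17, the amyloid-degrading proteases MME, ECE1, ECE2 and IDE, and the sorting receptor SORL1. They were chosen by name and function, with earlier results of these data known, and all 10 were found among the 60675 genes of the count table. RNA was sequenced from HEK293, a long-established human line derived from embryonic kidney, in 3 control libraries, which the labels call wild type, and 3 libraries labelled MOCS2 RNAi knockdown. Cells of both groups grew in high-glucose DMEM with fetal bovine serum and Geneticin, a selection antibiotic. The RNAi construct, and whether the knockdown cells are 1 clone or several cultures, are not stated in the sources used here, so p-values reflect only how these samples vary, and that variation may be technical. The study's title ties MPTAC to the fragmentation of APP, and the comparison below asks how RNA of the enzymes that cut APP and clear its fragments stood in the 2 groups.

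APP is a membrane protein that can be cut along competing routes. Alpha-secretases of the ADAM family of zinc metalloproteases cut inside the amyloid-beta sequence and so prevent that peptide from forming. The aspartic protease BACE1 cuts at the start of the sequence, and gamma-secretase then releases amyloid-beta from the membrane. Neprilysin (MME), the endothelin-converting enzymes (ECE1, ECE2) and insulin-degrading enzyme (IDE) are zinc peptidases that degrade the peptide, while SORL1 carries APP between the Golgi and endosomes and so sets which protease it meets.

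Reads assigned to genes ran from 17958632 to 22171106 per library. MOCS2 itself stood at 57.8 to 66.6 CPM among controls and 58.9 to 69.8 CPM among those labelled knockdown. CPM are read counts scaled to library size with TMM factors. The groups overlapped, with a log2 fold change of -0.01 (standard error 0.14), so the drop in MOCS2 RNA that the label implies was not seen. Directions below therefore compare libraries by label, knockdown against control. On the first principal component, which held 50.7% of the variance, the library labelled knockdown 3 lay at -7.32, between the controls (-44.4 to -25.1) and the other libraries of its group (51.0 and 52.0). Of the uniquely aligned reads, 37.5% fell outside genes in knockdown 2, against 21.5% to 25% in the other 5 libraries. All 10 HEK293 markers were detected in every library, from PAX2 at 0.905 to 1.62 CPM to VIM at 677 to 1527 CPM. Of 7 immune markers, CD3E, MS4A1 and TYROBP had no read in 4 of 6 libraries, PTPRC and CD68 reached at most 0.744 CPM, CD79A stood at 0.314 to 1.81 CPM and LYZ at 2.20 to 3.55 CPM.

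No member passed edgeR's quasi-likelihood test over all 18267 genes tested (adjusted p threshold 0.05), and neither did any other gene (0% higher and 0% lower), while 20.5% of genes had an unadjusted p under 0.05. At an unadjusted p under 0.05, ECE2 was higher and MME, SORL1 and ADAM9 were lower, 1 and 3 of 10 members, where 9.93% and 10.6% of all genes met the same mark. The groups did not overlap for 6 of 10 members: BACE2 and ECE2 lay above the controls (12.5% of all genes) and ADAM9, ADAM17, MME and SORL1 below (14.3%). Without control 2 the members at an unadjusted p under 0.05 were 0 higher and 1 lower. In that setting 10.6% of all genes met this mark in either direction, against 20.5% with all 6 libraries. These shares carry no test. The median log2 fold change of the 10 members was -0.07, against 0.02 over all genes. All 10 passed the filter on low counts. DESeq2 called 1 member, MME (lower, against 3.26% of all genes), and limma voom called 0. DESeq2 gave no adjusted p to 2125 genes, and its shares count them as not called. With no filter on low counts, edgeR called MME and SORL1 lower, 2 of 10 members, where it called 2.03% of all genes lower and 3.64% in either direction. Without knockdown 3, edgeR called MME, SORL1, ADAM9 and IDE lower, 4 of 10 members, where it called 8.3% of all genes lower and 6.46% higher.

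Levels can be compared between genes only per length, and CPM was therefore divided by each gene's exonic length in kilobases. That length covers every annotated exon, not the transcripts expressed. The order, ratios and shares per length depend on it, and the SDs do not include its error. By CPM alone, ADAM10 (114 ± 8.03) stood above ADAM17 (96.9 ± 3.84) in the controls. In the controls IDE was highest at 23.1 ± 1.82 (SD, n = 3) CPM per kb, followed by ADAM9 at 19.6 ± 2.79, and their ranges overlapped. ADAM17 came next at 9.01 ± 0.357, and its range lay apart from both neighbours. ADAM10 (7.05 ± 0.497) and BACE2 (6.85 ± 0.165) did not differ beyond their spread. Below them lay ECE1 at 5.93 ± 0.267 and BACE1 at 4.37 ± 0.173, each apart from its neighbours. ECE2 (1.84 ± 0.349) and SORL1 (1.35 ± 0.184) overlapped, and MME was lowest at 0.614 ± 0.207. In the libraries labelled knockdown the order of the means was the same except that BACE2 (8.18 ± 0.531) stood above ADAM10 (6.93 ± 0.945), and the ranges of neighbours overlapped from ADAM17 down to ECE2.

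**Figure D1:**
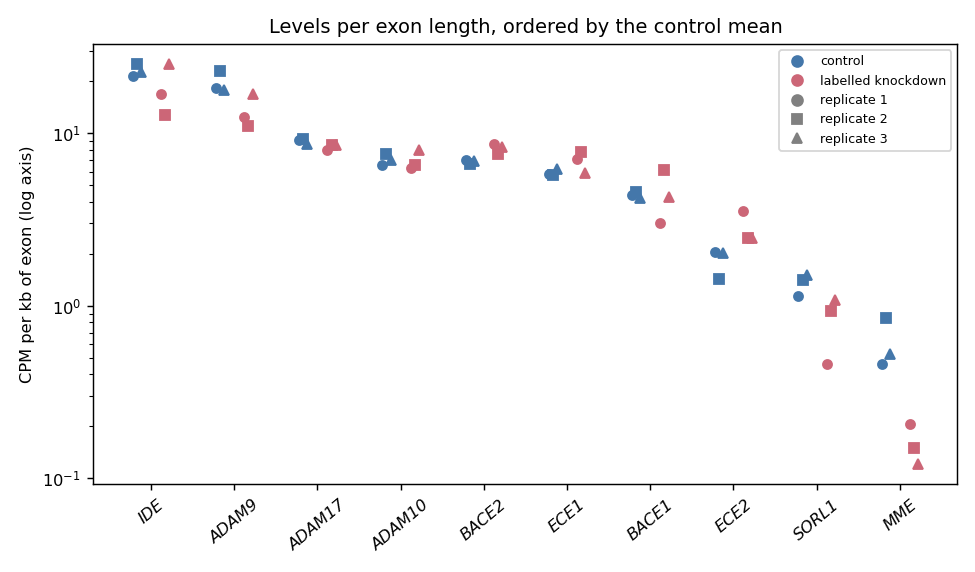
CPM per kilobase of exon (log axis) for each of the 10 genes in each library, ordered by the control mean; colour marks the group and the symbol the replicate. IDE and ADAM9 sit at the top and MME at the bottom in both groups, with the 3 MME points of the libraries labelled knockdown (0.121 to 0.206) below its 3 control points (0.463 to 0.85).

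Sequence before the first RefSeq start in the table is shown for MME and SORL1, the members with the largest differences, and for BACE1, whose groups overlapped. Each line gives 100 bases of that RefSeq promoter window (GRCh38.p14) that no exon of GENCODE 29 covers, on the gene's own strand from 5′ to 3′, with CG dinucleotides in capitals. They come from chr3:155079547-155079646 (MME, plus strand), chr11:121452103-121452202 (SORL1, plus strand) and chr11:117316260-117316359 (BACE1, minus strand). The MME stretch lies inside the gene as GENCODE 29 draws it, which begins upstream at 155024124.
MME: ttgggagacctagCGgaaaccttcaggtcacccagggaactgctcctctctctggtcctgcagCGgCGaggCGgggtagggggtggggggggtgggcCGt
SORL1: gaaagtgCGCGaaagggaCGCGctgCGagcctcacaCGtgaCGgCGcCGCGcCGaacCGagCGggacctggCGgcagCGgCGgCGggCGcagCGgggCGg
BACE1: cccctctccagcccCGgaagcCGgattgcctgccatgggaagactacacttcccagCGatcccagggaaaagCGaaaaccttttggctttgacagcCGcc
The SORL1 stretch holds 20 CG dinucleotides, and the MME and BACE1 stretches hold 5 each. The set of RefSeq promoter windows used here had entries for 7 members and none for BACE2, ADAM9 and ECE2. The first windows of these 7, of 300 bases (250 before to 50 after the start), were rich in G and C. They held 63.3% to 78%, against a median of 58.7% over 35116 windows. The motif GGGCGG, searched on both strands, was present in 6 of these 7 windows and in 45.0% of all windows. CCAAT was present in 1 of 7 (34.6% of all) and TATAAA in 0 of 7 (11.5% of all). A match is a description of the letters only. RefSeq lists 4 MME starts in the table, at positions 155079672, 155079870, 155080011 and 155080319, and counts per gene do not separate the transcripts that begin at them.

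BACE1, the beta-secretase (ENSG00000186318, chromosome 11, 117285207 to 117316259, minus strand, in GRCh38 coordinates), lay at 31.5, 32.7 and 30.2 CPM among controls and at 21.7, 44.0 and 30.5 CPM among those labelled knockdown. The controls lay close together, while knockdown 1 was below all of them, knockdown 2 above all of them and knockdown 3 among them. The group means were 31.5 ± 1.24 and 32.1 ± 11.2 CPM (SD, n = 3), with a log2 fold change of 0.03 and a standard error of 0.23 and a 95% interval from -0.47 to 0.53 (edgeR adjusted p = 0.956). The sign rests on single libraries: the value was -0.27 without knockdown 2 and 0.24 without knockdown 1. Knockdown 2, where BACE1 was highest, is also the library with 37.5% of reads outside genes, and the part of this in the BACE1 value was not tested. The exons of BACE1 share 26% of their length with BACE1-AS and 17.2% with RNF214, both on the opposite strand, and whether reads were counted by strand is not stated in the sources used here, so values of BACE1 are uncertain to that extent. BACE1-AS was counted at only 36 to 56 reads per library and averaged 1.97 ± 0.266 and 2.51 ± 0.461 CPM (adjusted p = 0.513).

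BACE2, the homologous aspartic protease (ENSG00000182240, chromosome 21, 41167801 to 41282518, plus strand), cuts APP mainly inside the amyloid-beta sequence. It stood at 67.3, 64.2 and 66.3 CPM among controls and at 83.2, 73.1 and 79.8 CPM among those labelled knockdown. All 3 of the latter lay above all controls, knockdown 3 among them. The means were 65.9 ± 1.59 and 78.7 ± 5.11 CPM, with a log2 fold change of 0.26 (standard error 0.13, 95% interval -0.04 to 0.55, edgeR adjusted p = 0.304). The value was positive under all 14 alternatives, from 0.21 to 0.30. The ratio of BACE2 to BACE1 per length, which does not depend on library scaling, was 1.6, 1.47 and 1.64 among controls and 2.86, 1.24 and 1.95 in knockdown 1, 2 and 3, so it overlapped between the groups through knockdown 2.

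ADAM10, regarded as the main constitutive alpha-secretase (ENSG00000137845, chromosome 15, 58588807 to 58749978, minus strand), stood at 106, 122 and 113 CPM among controls and at 101, 105 and 129.6 CPM among those labelled knockdown. Knockdown 3 was the highest of all 6 libraries and knockdown 1 the lowest. The log2 fold change was -0.02 (standard error 0.15, adjusted p = 0.947), and its 95% interval of -0.36 to 0.31 bounds a difference in either direction. ADAM17, also known as TACE, the sheddase of tumour necrosis factor (ENSG00000151694, chromosome 2, 9488486 to 9556732, minus strand), stood at 97.8, 100.1 and 92.6 CPM and at 85.9, 91.4 and 91.3 CPM. The groups did not overlap, but the lowest control (92.6 CPM) and the highest library labelled knockdown (91.4 CPM) lay close together. Its log2 fold change was -0.11 (standard error 0.13, 95% interval -0.41 to 0.18, adjusted p = 0.658). The exons of ADAM17 share 12.3% of their length with IAH1 on the opposite strand.

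ADAM9, a metalloprotease with alpha-secretase activity on APP in cultured cells (ENSG00000168615, chromosome 8, 38996869 to 39105144, plus strand), stood at 127, 158 and 122 CPM among controls. Among those labelled knockdown it stood at 86.2, 76.4 and 116 CPM. Knockdown 1 and 2 lay well below the controls and knockdown 3 just below the lowest of them. The means were 136 ± 19.3 and 92.9 ± 20.7 CPM, 68.4% of the control mean, with a log2 fold change of -0.55 (standard error 0.19, 95% interval -0.96 to -0.14, unadjusted p = 0.0138, edgeR adjusted p = 0.148). Without knockdown 3 the value was -0.75 and passed (adjusted p = 0.0156). Over the 14 alternatives the adjusted p ran up to 0.496. Summed per length, the 3 ADAM genes stood at 33.3 to 39.7 CPM per kb among controls and at 26.7, 26.1 and 33.3 in knockdown 1, 2 and 3, whereas ADAM10 and ADAM17 alone stood at 15.6 to 16.9 and at 14.3, 15.0 and 16.5.

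**Figure D2:**
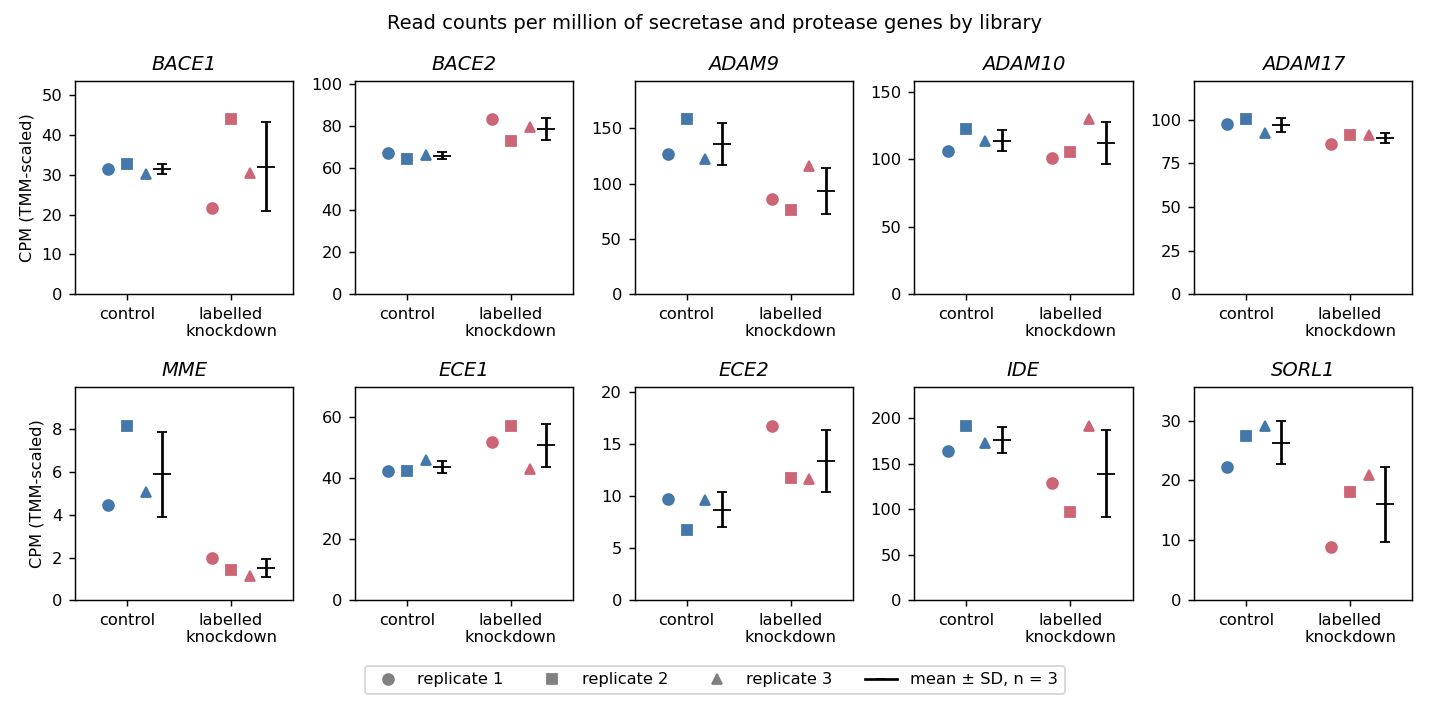
CPM of each gene by library among controls and among those labelled knockdown; symbols mark replicates 1, 2 and 3 and the black bars the mean ± SD (n = 3), and each axis starts at 0. The groups lie apart for BACE2, ADAM9, ADAM17, MME, ECE2 and SORL1, and the SD among those labelled knockdown is widest for IDE (48.1 CPM).

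MME, or neprilysin, a membrane peptidase that degrades amyloid-beta outside the cell (ENSG00000196549, chromosome 3, 155024124 to 155183729, plus strand), showed the largest difference of the 10 genes. It was counted at 99, 182 and 101 reads among controls and at 35, 27 and 22 reads among those labelled knockdown. Scaled to library size this was 4.45, 8.17 and 5.08 CPM against 1.98, 1.44 and 1.16 CPM. Every library labelled knockdown lay below every control, and knockdown 3, which was close to the controls for ADAM9 and IDE, was the lowest. The means were 5.90 ± 1.99 and 1.52 ± 0.417 CPM, 25.8% of the control mean. The log2 fold change was -1.95 (standard error 0.34, 95% interval -2.70 to -1.21), with an unadjusted p of 0.00014 and an edgeR adjusted p of 0.0671, where the smallest adjusted p of any gene was 0.0558. It was negative under all 14 alternatives, from -2.19 without knockdown 1 to -1.65 without control 2, and passed under 3 of them: DESeq2 (adjusted p = 3.2e-05), edgeR with no filter (4.91e-07) and edgeR without knockdown 3 (0.00947). Leaving out any other library gave an adjusted p of up to 0.397. The setting with no filter also passed TIMP3, a gene of the lists below whose groups overlapped (48.2 to 96.2 and 68.8 to 413 CPM). Its edgeR adjusted p was 8.01e-12 there and 0.14 with the filter. A small adjusted p with no filter therefore does not show that the groups lie apart.

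The protein-coding genes whose centred log2 CPM lay closest to that of MME over the 6 libraries were TRPA1, an ion channel (root mean square difference 0.245), NTS, the neurotensin precursor (0.250), and SCIN, an actin-severing protein (0.392), among 12478 candidates. TRPA1 stood at 6.56, 11.5 and 6.65 CPM among controls and at 2.54, 3.14 and 1.64 CPM among those labelled knockdown, and NTS at 8.81, 13.9 and 10.6 and at 3.22, 3.83 and 1.85 CPM. Like MME, both were highest in control 2 and lowest in knockdown 3, which the choice by likeness over these same libraries favours. MME is also a surface marker of kidney proximal tubule cells and of fibroblasts. Among 6 renal and epithelial markers, LRP2 (megalin) was below the controls in all 3 libraries labelled knockdown (38.3 to 71.5 against 9.90 to 21.9 CPM) and EPCAM overlapped (172 to 188 and 175 to 221 CPM). AQP1, a water channel of the proximal tubule, had a log2 fold change of the opposite sign to LRP2, 1.28, with overlapping groups (0.449 to 0.944 and 0.633 to 3.30 CPM, unadjusted p = 0.0418, edgeR adjusted p = 0.227). UMOD had no read in 5 of 6 libraries, and CDH16 and SLC12A1 reached at most 0.372 CPM. The summed level of that list was 224 to 244 CPM among controls and 198 to 241 CPM in the others. Without LRP2 it was 172 to 189 and 179 to 222 CPM. Of 7 fibroblast markers, LUM was below the controls (7.24 to 16.7 against 1.12 to 2.37 CPM). COL1A1, COL3A1 and DCN overlapped, with log2 fold changes of 0.19, 0.29 and -0.26, and COL1A2, THY1 and PDGFRB reached at most 0.691 CPM. The sum was 18.9 to 29.3 against 10.8 to 18.2 CPM, and without LUM it was 8.86 to 12.6 against 8.43 to 17.1 CPM. The part of these genes in the MME value was not tested. In a bulk sample, fewer cells with a transcript and less of it per cell cannot be told apart.

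ECE1 and ECE2 encode the endothelin-converting enzymes, which belong to the same peptidase family as neprilysin and degrade amyloid-beta inside the secretory and endosomal compartments. ECE2 (ENSG00000145194, chromosome 3, 184276011 to 184293031, plus strand) stood at 9.71, 6.78 and 9.57 CPM among controls and at 16.7, 11.7 and 11.6 CPM among those labelled knockdown, on 151 to 296 reads. All 3 of the latter lay above all controls, with knockdown 1 the highest. The means were 8.68 ± 1.65 and 13.3 ± 2.94 CPM, a ratio of 1.54, and the log2 fold change was 0.62 (standard error 0.23, 95% interval 0.10 to 1.14, unadjusted p = 0.0233, edgeR adjusted p = 0.181). It ranged from 0.42 without knockdown 1 to 0.71 without knockdown 3 and passed under none of the 14 alternatives. In GENCODE 29 a readthrough gene, EEF1AKMT4-ECE2, covers 62.7% of the ECE2 exons on the same strand. That gene has no row in the count table, and how the counting treated such reads is not stated in the sources used here.

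ECE1 (ENSG00000117298, chromosome 1, 21217247 to 21345572, minus strand) stood at 42.4, 42.3 and 45.7 CPM among controls and at 51.8, 57.1 and 42.9 CPM among those labelled knockdown. Knockdown 1 and 2 lay above the controls and knockdown 3 among them. The log2 fold change was 0.22 (standard error 0.15, 95% interval -0.12 to 0.56, edgeR adjusted p = 0.435), and 0.12 without knockdown 2. ECE1 exceeded ECE2 per length in all 6 libraries, by 2.82, 4.02 and 3.08 times among controls and 2.00, 3.15 and 2.39 times in knockdown 1, 2 and 3. How reads shared with the readthrough gene were counted bears on these ratios and on every ECE2 level per length, and its part was not tested.

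IDE, a largely cytosolic zinc peptidase that degrades insulin and amyloid-beta (ENSG00000119912, chromosome 10, 92451684 to 92574076, minus strand), stood at 164, 191 and 172 CPM among controls and at 128, 97.3 and 192 CPM among those labelled knockdown. Knockdown 1 and 2 lay below all controls and knockdown 3 above all of them. The means were 176 ± 13.8 and 139 ± 48.1 CPM, with a log2 fold change of -0.34 (standard error 0.22, 95% interval -0.83 to 0.15, edgeR adjusted p = 0.412). The value was -0.64 without knockdown 3, where it passed (adjusted p = 0.0322), and -0.14 without knockdown 2. Of the summed level per length of IDE, ECE1, ECE2 and MME, IDE made up 72.0% to 75.7% among controls and 60.9%, 55.1% and 74.9% in knockdown 1, 2 and 3. MME made up 1.55% to 2.56% among controls and 0.743%, 0.643% and 0.359% in the others, so its share was lower in all 3.

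SORL1, a sorting receptor that binds APP and holds it away from the compartments where BACE1 acts (ENSG00000137642, chromosome 11, 121452203 to 121633693, plus strand), stood at 22.3, 27.5 and 29.1 CPM among controls and at 8.93, 18.1 and 20.9 CPM among those labelled knockdown. The groups did not overlap, with knockdown 1 far below the rest and knockdown 3 close to the lowest control. The means were 26.3 ± 3.58 and 16 ± 6.28 CPM, 60.8% of the control mean, and the log2 fold change was -0.72 (standard error 0.28, 95% interval -1.33 to -0.11, unadjusted p = 0.0256, edgeR adjusted p = 0.187). The value was -0.43 without knockdown 1. It passed edgeR with no filter (-0.74, adjusted p = 0.0238) and also when knockdown 3 was left out (-0.96, adjusted p = 0.0373). The limit given for MME on the setting with no filter holds here too. The adjusted p over the 14 alternatives ran up to 0.484. The gene closest in pattern to SORL1 was GALNT6, a glycosyltransferase (root mean square difference 0.0422), at 16.4, 18.7 and 19.99 CPM among controls and 6.503, 12.6 and 14.8 CPM among those labelled knockdown. For ADAM9 the closest gene was PLEKHA5 (0.0370) and for ECE2 it was PES1, a ribosome biogenesis factor (0.0528).

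**Figure D3:**
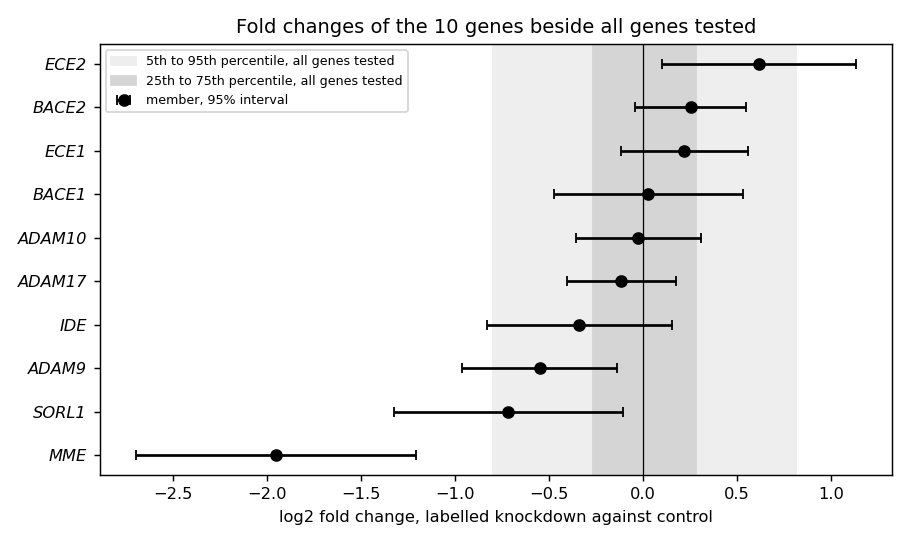
Log2 fold change of each gene among those labelled knockdown against the controls with its 95% interval, over bands that hold the middle of the distribution of all 18267 genes tested. Intervals of MME, SORL1, ADAM9 and ECE2 exclude 0 before adjustment, MME lies outside the band from the 5th to the 95th percentile (-0.80 to 0.82), and none of the 10 passed after adjustment.

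Other genes of the pathway were read from 7 lists by role, 94 genes in all, of which 84 were tested and 10 lay below the filter on low counts. NRDC stands in both the degradation and the maturation list. Of the 84, edgeR called 0 after adjustment, and at an unadjusted p under 0.05 there were 11 higher and 18 lower, where 9.93% and 10.6% of all genes were. DESeq2 called 7 of them, where it called 6.33% of all genes (2125 without an adjusted p count as not called), and limma voom called 0.

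Among the substrates and gamma-secretase genes, 7 of 9 lay wholly below the controls (14.3% of all genes) and 0 above (12.5%), with a median log2 fold change of -0.41. At an unadjusted p under 0.05, 5 were lower (10.6% of all genes) and 1 higher (9.93%). The 5 became 3 without control 1, control 2, control 3 or knockdown 1. In those settings 14%, 10.6%, 14.6% and 12.4% of all genes met this mark in either direction, against 20.5% in all 6 libraries. APH1B, a gamma-secretase subunit, averaged 16.2 ± 2.75 CPM among controls and 8.56 ± 1.84 CPM among those labelled knockdown (-0.92, standard error 0.22, edgeR adjusted p = 0.0976). PSENEN, the subunit that activates presenilin, averaged 60.1 ± 7.82 and 37.1 ± 9.84 CPM, and NCSTN, the nicastrin subunit, 68.2 ± 4.96 and 47.2 ± 8.27 CPM. These values belong to genes that share the fit and the libraries of the 10 members and are not independent of them.

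Of 12 other amyloid-degrading proteases that were tested, 1 was higher and 2 were lower at an unadjusted p under 0.05 (median -0.14), against 9.93% and 10.6% of all genes. PLAT, tissue plasminogen activator, stood at 40.1, 53.0 and 42.9 CPM among controls and at 26.7, 25.7 and 21.9 CPM among those labelled knockdown. As with MME, control 2 was the highest and knockdown 3 the lowest (-0.87 on the log2 scale, standard error 0.17, edgeR adjusted p = 0.0735, range over the 14 alternatives 0.00103 to 0.406). CTSD, the lysosomal protease cathepsin D, stood at 59.4, 61.7 and 69.7 CPM and at 19.5, 30.7 and 48.1 CPM (-0.96, adjusted p = 0.11). MMP14, a membrane matrix metalloprotease, averaged 3.54 ± 1.16 and 5.66 ± 0.809 CPM (0.68, adjusted p = 0.222). CTSB, cathepsin B, overlapped between the groups (83.2 to 95.7 and 77.3 to 88.3 CPM), as did PITRM1, a mitochondrial relative of IDE (192 to 209 and 161 to 207 CPM). MMEL1, the closest homologue of neprilysin, had 1 read at most in any library.

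Of 10 other tested ADAM genes, 0 were higher (9.93% of all genes) and 3 lower (10.6%) at an unadjusted p under 0.05 (median -0.17): ADAM22 (43.2 ± 6.27 and 27.6 ± 7.60 CPM), ADAM15 (60.1 ± 4.25 and 44.5 ± 3.78 CPM) and ADAM11 (21.9 ± 3.34 and 14.2 ± 4.74 CPM). ADAM22 and ADAM11 lack the catalytic zinc site and act as adhesion receptors, while ADAM15 is an active protease. ADAM11 overlapped between the groups, and its log2 fold change of -0.62 was -0.94 without knockdown 2.

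Genes that mature, inhibit or escort the secretases stood on both sides of the controls. TIMP3, an inhibitor of ADAM10 and ADAM17, stood at 57.8, 48.2 and 96.2 CPM among controls and at 138, 413 and 68.8 CPM among those labelled knockdown. The groups overlapped through knockdown 3, and the log2 fold change of 1.62 (edgeR adjusted p = 0.14) was 0.61 without knockdown 2. RECK, a membrane inhibitor of metalloproteases, averaged 11.05 ± 2.41 and 7.29 ± 0.65 CPM. RTN4, a reticulon of a family that binds and inhibits BACE1, averaged 144 ± 8.61 and 186 ± 6.27 CPM with all 3 libraries labelled knockdown above the controls (adjusted p = 0.176). FURIN, the convertase that removes the inhibitory propeptides of these enzymes, overlapped (106 to 116 and 76.3 to 152 CPM). Of 11 partners of ADAM10 and ADAM17, 3 lay wholly below the controls (14.3% of all genes) and 0 above (12.5%; median -0.14): RHBDF1, an inactive rhomboid that carries ADAM17 to the surface (9.59 ± 0.965 and 5.25 ± 1.63 CPM), and the ADAM10-binding tetraspanins TSPAN15 (19.2 ± 2.15 and 12.7 ± 1.42 CPM) and TSPAN5 (18.7 ± 2.81 and 12.95 ± 0.344 CPM). Their edgeR adjusted p-values were 0.122, 0.124 and 0.146.

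In the list of sorting receptors, adaptors and retromer, to whose function SORL1 belongs, 2 of 16 tested genes were higher (9.93% of all genes) and 3 lower (10.6%) at an unadjusted p under 0.05 (median -0.12). The 3 became 1 without control 2, knockdown 1 or knockdown 2 and 6 without knockdown 3. Of all genes, 10.6%, 12.4%, 22.1% and 31.1% met this mark in either direction in those settings, against 20.5% in all 6 libraries. VPS35, the core retromer subunit, stood at 245, 233 and 211 CPM among controls and at 152, 133 and 189 CPM among those labelled knockdown, with a log2 fold change of -0.54 and an edgeR adjusted p of 0.127. SORCS1, a relative of SORL1, stood at 6.02, 7.72 and 12.8 CPM and at 16.1, 43.7 and 12.9 CPM, so that knockdown 3 lay just above control 3. Its log2 fold change of 1.45 was 0.70 without knockdown 2 (adjusted p = 0.122 in all 6 libraries). ARF6, a GTPase of endosomal traffic, averaged 108 ± 13.9 and 169 ± 12.9 CPM and lay above the controls in all 3 libraries, knockdown 3 included (0.65, standard error 0.15, adjusted p = 0.0913).

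Other substrates of the same sheddases were higher in 5 of 16 tested genes (9.93% of all genes) and lower in 1 (10.6%) at an unadjusted p under 0.05 (median 0.17). Without knockdown 2 there were 1 higher and 1 lower, and the median turned to -0.02. The 5 became 2 without control 2 and 3 without control 3 or knockdown 1. The share of all genes meeting this mark in either direction was 20.5% in all 6 libraries. It was 22.1% without knockdown 2, 10.6% without control 2, 14.6% without control 3 and 12.4% without knockdown 1. SEZ6L, a substrate of BACE1, averaged 0.348 ± 0.135 and 1.29 ± 0.534 CPM (1.88, standard error 0.47, edgeR adjusted p = 0.0979). It rests on few reads, 6, 6 and 10 among controls and 30, 28 and 13 among those labelled knockdown. AREG, the growth factor amphiregulin shed by ADAM17, stood at 1.93, 1.48 and 2.57 CPM among controls and at 6.45, 6.75 and 1.90 CPM among those labelled knockdown. NOTCH1, which ADAM10 cuts, stood at 20.6, 10.7 and 14.9 CPM and at 23.6, 42.6 and 17.3 CPM, and its log2 fold change of 0.85 was 0.40 without knockdown 2. AREG and NOTCH1 overlapped between the groups through knockdown 3.

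**Figure D4:**
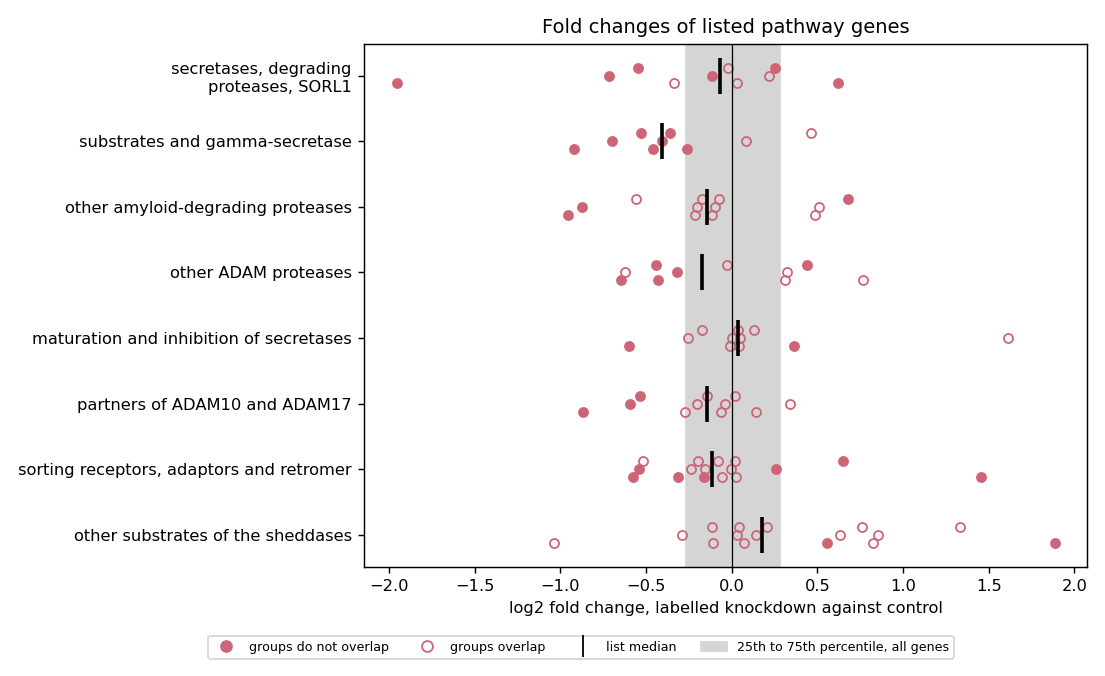
Log2 fold changes of the 10 genes (top) and of the tested genes of the 7 pathway lists; each point is a gene, filled where the 2 groups do not overlap, the vertical mark is the list median and the grey band the middle of all genes tested (25th to 75th percentile, -0.27 to 0.28). MME lies farthest to the left of all genes shown, and the median of the substrates and gamma-secretase list (-0.41) is the one median outside the band.

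The members differed in how much they depended on knockdown 3. Relative to the control mean of log2 CPM, knockdown 1, 2 and 3 stood at -1.48, -1.92 and -2.20 for MME and at 0.34, 0.15 and 0.28 for BACE2. For ADAM9 they stood at -0.65, -0.82 and -0.22, for SORL1 at -1.54, -0.53 and -0.32, and for IDE at -0.45, -0.85 and 0.13. Over the 10 members the median deviation was -0.31, -0.10 and -0.03 in knockdown 1, 2 and 3, with 7, 6 and 6 members below the control mean.

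**Figure D5:**
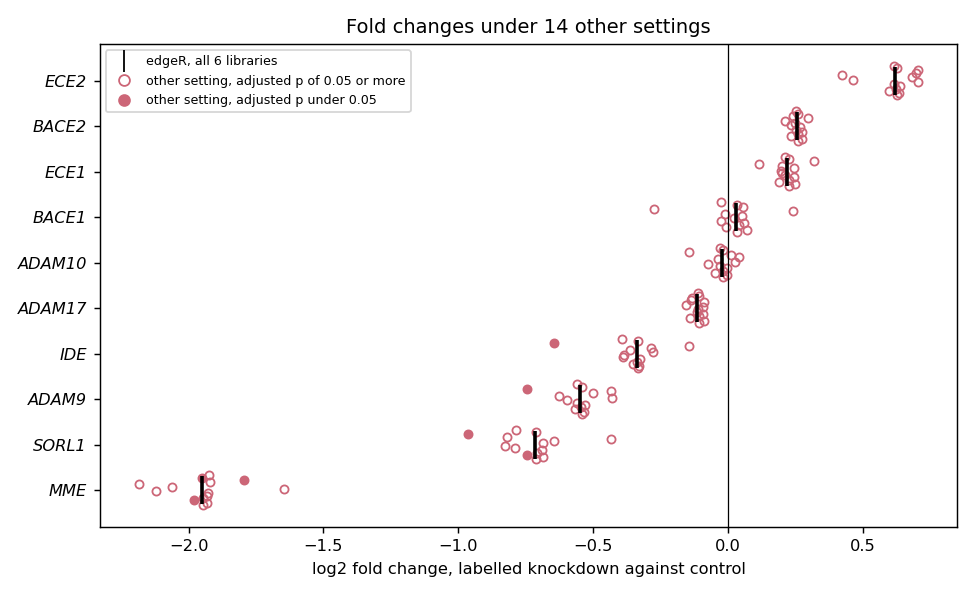
Log2 fold change of each gene in edgeR on all 6 libraries (vertical mark) and under 14 other settings (circles, spread vertically for legibility), filled where the adjusted p was under 0.05. Values of MME, SORL1, ADAM9, IDE and ADAM17 stay below 0 and those of ECE2, BACE2 and ECE1 above 0 under all 14, while BACE1 and ADAM10 fall on both sides of 0.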

How the data were processed

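Total RNA of 6 HEK293 samples was sequenced from stranded libraries after ribosomal RNA removal, per the labels' protocols. As deposited by the authors, the values are unnormalized read counts for each Ensembl gene. The tools bcl2fastq 2.18, TopHat2 2.0.13 and HTSeq on hg38 are named per the submitters' processing notes. The annotation release and strand setting are not stated in the sources used here. Reads outside genes (21.5% to 37.5%) and ambiguous reads (2.87% to 3.70%) were left out of library sizes. Symbols, coordinates and exonic lengths came from GENCODE 29 (GRCh38) by Ensembl identifier (57055 of 60675 matched), and promoter sequence from RefSeq (GRCh38.p14).

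All genes were fitted together with edgeR 4.0.16 (R 4.3.3; TMM, filterByExpr, quasi-likelihood F test, two-sided, Benjamini-Hochberg, threshold 0.05). Standard errors were taken from the fold change and F, and intervals used 10.6 degrees of freedom. CPM were scaled by TMM factors, with a prior count of 2 for log2 CPM. The test was checked on simulated data in which both groups had the same spread for each gene, so unequal spread was not checked. Within each group, libraries differed beyond counting noise, and each was taken as a sample. Chi-square divided by its degrees of freedom was 10.03 to 17.6 among controls and 36.3 to 63.7 among those labelled knockdown. The median SD of log2 CPM was 0.161 and 0.311, while the edgeR fit used 1 dispersion per gene for both groups. Alternatives were other size factors, DESeq2 1.42.0, limma voom 3.58.1, other filters, protein-coding genes only, a replicate block, and omission of each library.

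The text names every member, the 3 genes with the smallest p in each pathway list, and the genes closest in pattern to members with an unadjusted p under 0.05. Other listed genes (CTSB, PITRM1, MMEL1, FURIN and the markers) were added after their values were seen. Members and lists were chosen with earlier results of these data known. Likeness was computed over genes of at least 2 mean CPM.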

Additional observations from a re-analysis of the deposited data

How the results depend on the processing

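With edgeR on all 6 libraries, 0 genes were called higher, 0 lower, and 0 of the 10 members and 0 of the listed pathway genes (3746 genes had an unadjusted p under 0.05). Leaving out 1 library gave 0 to 1232 higher, 0 to 1583 lower, 0 to 4 of the 10 members and 0 to 18 pathway genes. The upper ends were those without knockdown 3, where 14.8% of all 19062 genes tested were called. The only other library whose omission gave calls was control 3, with 4 lower. With no filter there were 694 higher and 880 lower (3.64% of 43251 genes tested), with 2 members and 14 pathway genes. With DESeq2 there were 562 and 595 (6.33% of 18267), with 1 member and 7 pathway genes. Of those 18267 genes, 2125 had no DESeq2 adjusted p and count as not called. Same-numbered samples deviated together in 1 of 3 pairs (correlations 0.114, -0.167 and -0.125). The deviations were centred within groups of 3, so these correlations cannot tell whether same-numbered samples shared a batch. With the replicate block, edgeR called 6 genes higher and 13 lower, with 0 members and 0 pathway genes.

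BACE1 had a log2 fold change of 0.03, which turned negative with no filter (-0.00903), with the replicate block (-0.0267) and with limma voom (-0.0273), and which ran from -0.274 to 0.24 when 1 library was left out. ADAM10 (-0.02) ran from -0.146 to 0.0411 and was positive without control 2, knockdown 1 or knockdown 2. MOCS2 (-0.01) was positive with upper-quartile factors (0.00949) and with protein-coding genes alone (0.00953), and ran from -0.0941 to 0.0267 when 1 library was left out. The cause was not tested. The other 8 members kept their direction under all 14 alternatives. MME rests on 22 to 182 reads per library, which limits its precision.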
